A study of Mus musculus with 10 samples.

Results

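The 6 genes that carry a miRNA from its primary transcript to its mature form were followed in mouse embryonic stem cells (ESCs). They are Drosha and Dgcr8, which make up the Microprocessor, Xpo5, which takes the cut hairpin out of the nucleus, Dicer1, which cuts it again, and Tarbp2 and Prkra, the partners of Dicer. They were chosen by symbol, and 6 of the 51467 genes in the count table carry these names. The 10 libraries were made by QuantSeq, a method that reads messenger RNA from its 3′ end beside the poly(A) tail. Wild-type (WT) ESCs gave 3 libraries, Dgcr8 knockout (DGCR8 KO) ESCs gave 3, and Ddx6 knockout (DDX6 KO) ESCs gave 4, with 2 from clone 1 and 2 from clone 2. Ddx6 encodes an RNA helicase that the miRNA effector complex recruits. All cells were kept in serum, LIF and 2i (PD0325901 and CHIR99021), and no group had another treatment. The DDX6 KO clones were made with CRISPR-Cas9 and carry different lesions, each with a premature stop, whereas the DGCR8 KO line is a single line from earlier work of the same laboratory. The labels do not say whether libraries of a group came from separate cultures, so p-values measure the spread between libraries.

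A miRNA is first part of a long primary transcript. In the nucleus Drosha cuts the hairpin at its base while DGCR8 holds it, and Exportin 5, bound to Ran loaded with GTP, carries the hairpin to the cytoplasm. Dicer then removes the loop, with TRBP (Tarbp2) or PACT (Prkra) at its side, and 1 strand is loaded into an Argonaute. The Microprocessor is also known to cut hairpins within the mRNA of Dgcr8 itself, and DGCR8 protein is known to stabilise Drosha protein. ESCs depend on this route for a family of abundant miRNAs, the ESCC miRNAs, which are lost without DGCR8.

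The ESCC miRNAs are shown because the paper describes the family as a predominant part of the miRNAs in ESCs. In its reporter line, naive ESCs were negative for miR-302 and positive for miR-290. The level of each member was not measured here. The 5 mature miRNAs were taken from RefSeq (GRCm38.p6) by their seed, bases 2 to 8 (AAGUGCU), which is written in capitals. Whether they make up the whole family was not checked.
mmu-miR-291a-3p: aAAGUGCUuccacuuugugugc
mmu-miR-294-3p: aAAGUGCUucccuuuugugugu
mmu-miR-295-3p: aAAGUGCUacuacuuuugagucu
mmu-miR-302b-3p: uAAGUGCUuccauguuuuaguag
mmu-miR-302d-3p: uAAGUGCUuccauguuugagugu
The first 3 lie in a cluster on chromosome 7 (from 3218968 to 3220837) and the other 2 on chromosome 3 (from 127545275 to 127545687). The 3′ UTRs of the 6 genes were searched for 7-base matches to the seed, which are AGCACTT or, shifted by 1 base, GCACTTA, with their overlap AGCACTTA counted once. The search covered the transcript strand of their principal coding transcripts (Gencode, GRCm38). One match was found, in the 3′ UTR of Dicer1, at base 1422 of 3851 after the stop codon (chr12:104690165-104690171, minus strand). It is given with its flanks and the match in capitals.
Dicer1 3′ UTR: gtaatgctGCACTTAggttcaag
Of 10895 tested genes with a 3′ UTR, 20.0% had at least 1 such match, and of the 1008 with a 3′ UTR of a length like that of Dicer1 (0.8 to 1.25 times) 44.8% did. The 3′ UTRs of Dgcr8 (1574 bases), Xpo5 (1327 bases), Prkra (513 bases), Tarbp2 (334 bases) and Drosha (168 bases) held no match to these letters.

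A pair of annotated miRNA hairpins lie in exon 2 of Dgcr8, and their mature strands are shown because they mark where the Microprocessor's own partner carries hairpin sequence. The hairpin of miR-1306 (chr16:18284239-18284317, minus strand) lies in coding sequence.
mmu-miR-1306-5p: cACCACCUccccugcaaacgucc
mmu-miR-1306-3p: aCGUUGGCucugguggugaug
The hairpin of miR-3618 (gene Gm24572, chr16:18284550-18284637, minus strand) lies in the 5′ UTR.
mmu-miR-3618-5p: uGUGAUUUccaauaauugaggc
mmu-miR-3618-3p: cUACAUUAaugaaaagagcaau
A further hairpin, that of miR-693, lies in an intron of Xpo5 (chr17:46231531-46231619, plus strand). These 3 hairpin genes had 0 counts over the 10 libraries, which for a method that reads poly(A) ends says nothing of the mature miRNAs.

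The libraries held 2131156 to 4745083 counts over genes. Levels are given as CPM, which puts the counts of all libraries on 1 scale with size factors, and 3 counts, taken as the floor, correspond to 0.669 to 1.44 CPM. A gene was tested when it reached 3 CPM in at least 3 libraries, which 11683 genes did. The 8 ESC markers checked, Pou5f1, Nanog and Sox2 among them, were all tested and summed to 3335 to 4320 CPM in every library. Single markers moved both ways within this sum. Nanog had 795 to 922 CPM in DDX6 KO against 511 to 604 CPM in WT. Sox2 had 676 to 992 CPM in DGCR8 KO against 514 to 601 CPM in WT, whereas Zfp42 had 162 to 186 against 204 to 223 CPM. Of 8 fibroblast markers 2 were tested, and the list summed to 5.80 to 9.12 CPM in WT, 4.89 to 5.77 CPM in DGCR8 KO and 7.74 to 10.99 CPM in DDX6 KO libraries. The list of 7 primitive endoderm markers, of which Dab2 was the only 1 tested and Sox7 was at 0 in every WT and DGCR8 KO library, summed to 8.69 to 13.4 CPM in WT, 4.07 to 6.45 CPM in DGCR8 KO and 17.4 to 24.5 CPM in DDX6 KO libraries, and its part in the results was not tested. Ddx6 itself had 538 ± 42.3 CPM (SD, n = 3) in WT, 142 ± 10.5 CPM (SD, n = 2) in clone 1 and 32.4 ± 9.41 CPM (SD, n = 2) in clone 2. Tags from the 3′ end lie outside the edited stretch, so these levels do not check the loss of the protein.

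QuantSeq gives about 1 read per transcript whatever its length, so counts need no division by length. Only reads with 1 place in the genome were kept by the authors. How far the share of reads lost differs between genes was not tested, so the order below is one of counts. In WT cells Drosha stood highest with 168 ± 21.03 CPM (SD, n = 3), followed by Dicer1 with 117 ± 14.2 CPM, Xpo5 with 73.3 ± 12.6 CPM and Dgcr8 with 56.1 ± 8.41 CPM. The WT libraries of Drosha and of Dicer1 did not overlap, whereas those of Xpo5 (64.1 to 87.6 CPM) and Dgcr8 (50.4 to 65.8 CPM) did. Prkra followed at 9.66 ± 2.60 CPM and Tarbp2 at 1.74 ± 0.64 CPM (SD, n = 3 for each). Tarbp2 had 5 counts in each WT library and did not reach 3 CPM in any of the 10 libraries, so 5 of the 6 genes were tested.

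**Figure D1:**
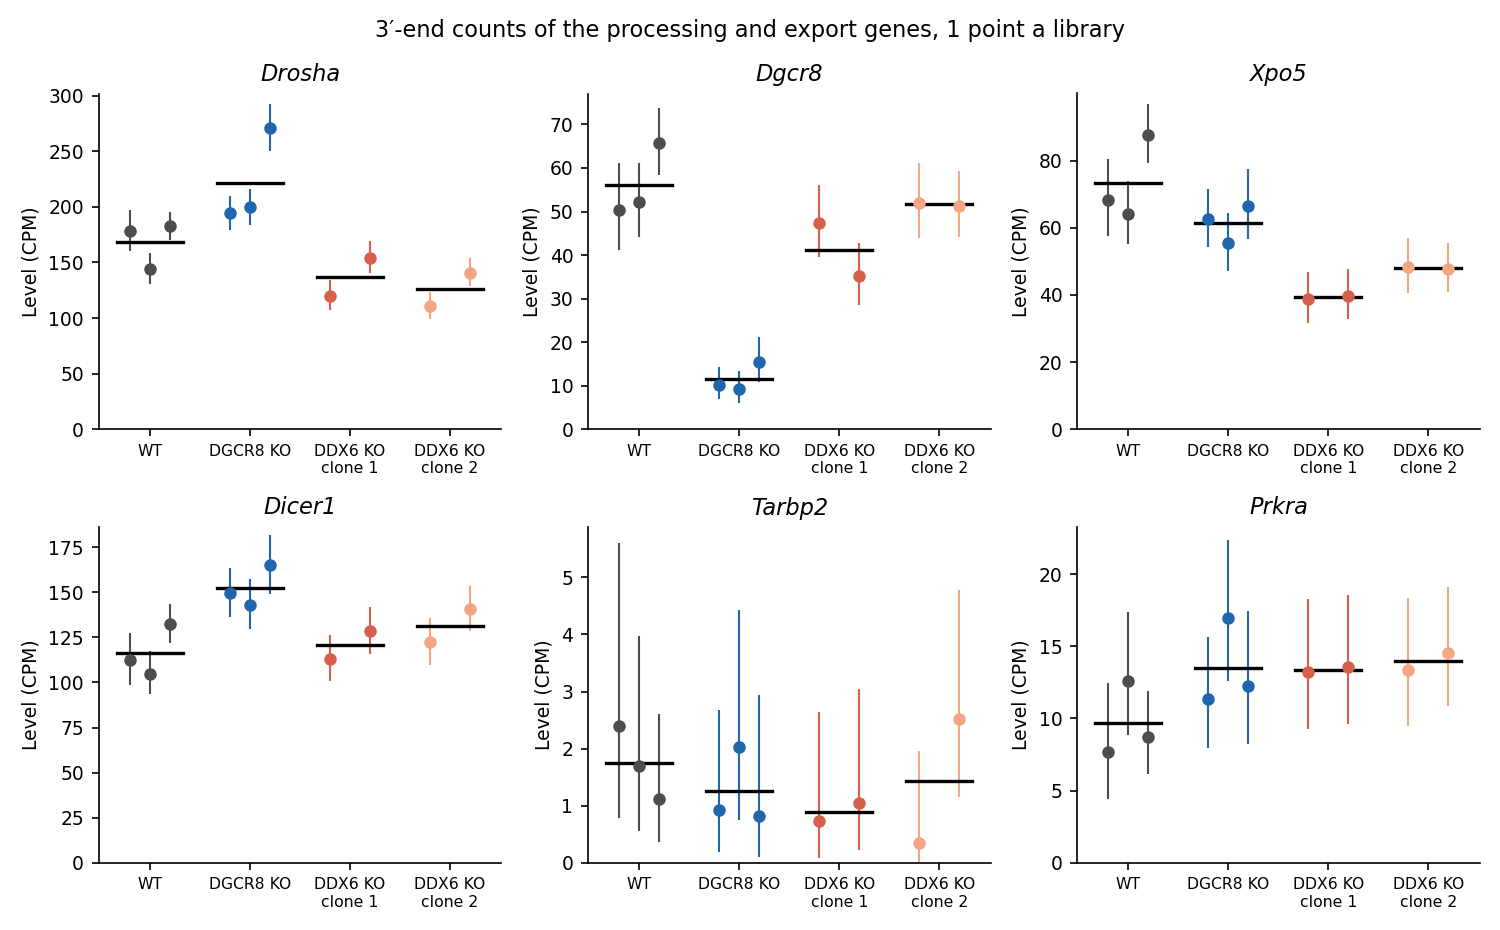
Level of each gene in CPM, with 1 point for each library, vertical lines for the 95% Poisson interval of its count and horizontal bars for the mean of a group. Dgcr8 stands at 9.16 to 15.5 CPM in DGCR8 KO libraries against 50.4 to 65.8 CPM in WT, Xpo5 at 38.8 to 48.2 CPM in DDX6 KO libraries against 64.1 to 87.6 CPM in WT, and the intervals of Tarbp2 overlap across all groups.

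The DGCR8 KO comparison asks how the pathway's own mRNAs stand when canonical miRNAs cannot be made. Against WT, 3 of the 5 tested genes passed at an adjusted p-value under 0.05, 2 higher and 1 lower, where 36.3% of all genes tested passed (19.9% higher and 16.5% lower). A change beyond 1 on the log2 scale with that p-value was seen for Dgcr8 alone, where 14.7% of all genes met both criteria. In DDX6 KO cells 1 of 5 passed, Xpo5, and it was lower, where 34.5% of all genes passed (17.9% higher and 16.6% lower). No gene of the 5 also changed beyond 1 on the log2 scale there, by limma, edgeR or DESeq2, although 3 had an unadjusted p-value under 0.05 by limma, and 2 by each of the others (11.2% of all genes met both criteria by limma). When the knockouts were set against each other 3 of 5 passed, 2 higher and 1 lower in DGCR8 KO, where 44% of all genes did (23% higher and 21% lower). Dgcr8 alone also differed beyond 1 there, where 17.1% of all genes did. The libraries of both groups did not overlap for 3 of 5 genes in the first contrast, 2 of 5 in the second and 4 of 5 in the last, where 44.8%, 39.9% and 45.8% of all genes did not. Each count of genes that passed lay within 2 genes of what these shares would give for 5 genes. The median over the 5 genes was 0.38, -0.30 and 0.27 on the log2 scale in the 3 contrasts, beside 0.0043, 0.024 and 0.0019 over all genes tested.

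The Microprocessor genes moved in different ways in DGCR8 KO cells. Dgcr8 (ENSMUSG00000022718, GRCm38 chr16:18253948-18289249, minus strand), the RNA-binding subunit and the targeted gene, stood at 50.4, 52.1 and 65.8 CPM in WT. The DGCR8 KO values were 10.1, 9.16 and 15.5 CPM. These rest on 33, 27 and 38 counts, and all 3 lay below every other library. Dgcr8 fell by 2.34 on the log2 scale (SE 0.25, limma adjusted p = 9.44e-07), to 20.6% of the WT mean. The sources used here do not give the deleted part of the gene, so whether these tags come from a transcript that could make protein cannot be told from them. Lower levels in bulk RNA also cannot tell fewer cells of a type from less RNA per cell. Under the alternatives tried, its change stayed between -2.54 and -2.20. Trmt2a overlaps the 3′ end of Dgcr8 on the opposite strand and had 867 counts over the 10 libraries, but counting was by strand.

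In DDX6 KO cells Dgcr8 had 47.2 and 35.1 CPM in clone 1 and 52.1 and 51.2 CPM in clone 2. The values overlapped with those of WT, and the difference of -0.30 (SE 0.16, 95% interval -0.64 to 0.033) was not past the threshold (limma adjusted p = 0.154). Library 2 of clone 1 gave the low end. The difference was -0.16 without WT library 3, -0.17 without clone 1 library 2 and -0.13 with the replicate block (adjusted p = 0.565, 0.417 and 0.595). Over the 23 alternatives it ran from -0.47 with clone 1 alone to -0.13 with clone 2 alone, past the threshold in none. In the fit by clone, the clone 1 libraries all lay below the WT range, with a difference of -0.48 (limma adjusted p = 0.0811). For clone 2 the difference was -0.14 (limma adjusted p = 0.617). Between the knockouts, Dgcr8 was lower in the cells without DGCR8, with a log2 difference of -2.04 (SE 0.24, limma adjusted p = 2.71e-06).

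Drosha (ENSMUSG00000022191, chr15:12824815-12935290, plus strand), the nuclease subunit, stood at 178, 144 and 183 CPM in WT libraries 1, 2 and 3. The DGCR8 KO values were 194, 199.5 and 271 CPM, all above the WT range. The increase of 0.38 (SE 0.15, limma adjusted p = 0.0488) lay just inside the threshold, and it was outside the threshold in 15 of 21 alternatives, with adjusted p-values from 0.00724 to 0.215. Leaving out DGCR8 KO library 3 gave 0.24 (adjusted p = 0.215), and leaving out WT library 2 gave 0.27 (adjusted p = 0.209). With the replicate number as a block the increase was 0.41 (adjusted p = 0.00724). The direction was the same in all 21.

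In DDX6 KO cells Drosha had 120.1 and 154 CPM in clone 1 and 111 and 141 CPM in clone 2. Of these, 3 of 4 libraries lay below the WT range. The difference of -0.36 (SE 0.14, 95% interval -0.65 to -0.063, limma adjusted p = 0.0558) was not past the threshold. With the replicate number as a block it was -0.22 (adjusted p = 0.170), with scaling by total counts -0.24 (adjusted p = 0.183), and with clone 1 alone -0.29 (adjusted p = 0.245). It passed without WT library 2 (-0.47, adjusted p = 0.0277) and without clone 1 library 2 (-0.43, adjusted p = 0.0340). It also passed without DGCR8 KO library 2 (-0.36, adjusted p = 0.0430) or 3 (-0.36, adjusted p = 0.0300), which enter the shared estimate of the spread. The contrast of the knockouts themselves was firmer. Drosha was higher in DGCR8 KO than in DDX6 KO cells by 0.74 (SE 0.14, limma adjusted p = 0.000309), a 1.67-fold difference, with no overlap of the libraries, and it passed in all 23 alternatives (0.59 to 0.82). The order of the levels was therefore DGCR8 KO, WT, DDX6 KO, in which DGCR8 KO and DDX6 KO differed past the threshold in all alternatives and neither neighbour of WT was told apart from it in all of them.

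The ratio of Dgcr8 to Drosha within a library does not depend on the scaling. It was 0.283, 0.362 and 0.360 counts of Dgcr8 per count of Drosha in WT. Without DGCR8 it was 0.0520, 0.0459 and 0.0571. Without DDX6 it was 0.393 and 0.227 for clone 1, then 0.470 and 0.364 for clone 2, on both sides of the WT values. On the log2 scale the ratio differed from WT by -2.69 in DGCR8 KO cells (two-sided exact permutation test, p = 0.10, the smallest that 3 against 3 allows). It differed by 0.079 in DDX6 KO cells (two-sided exact permutation test, p = 0.743, where 3 against 4 allows 0.0286).

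**Figure D2:**
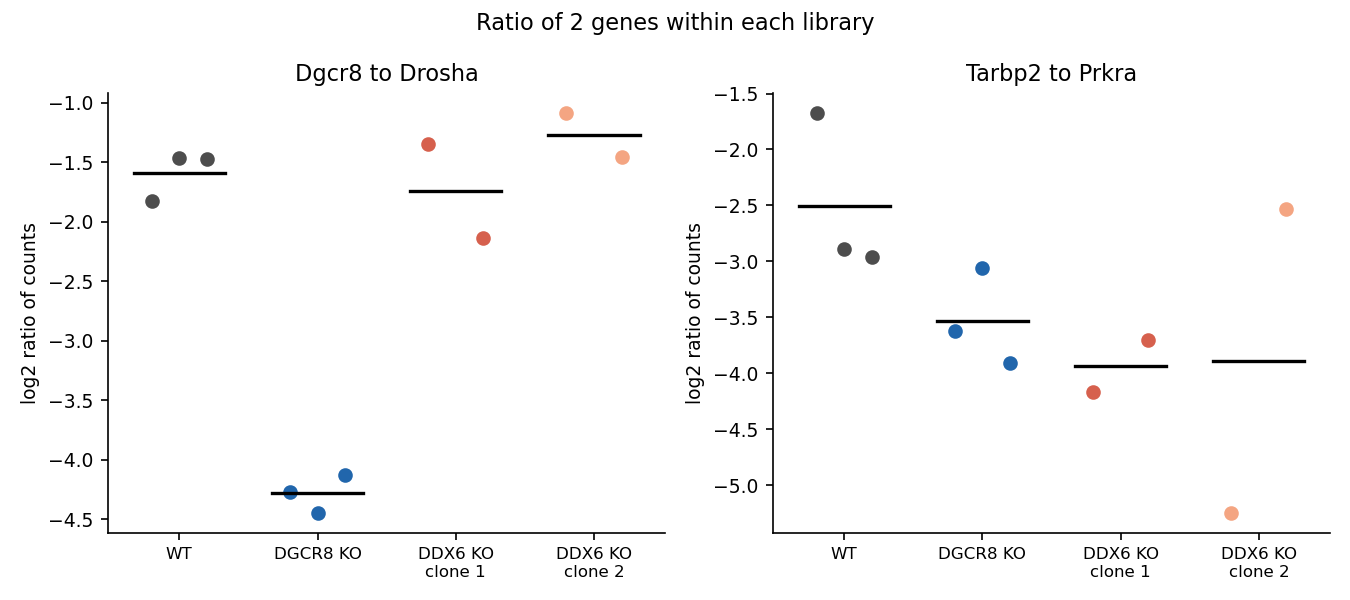
Log2 ratio of counts of 2 genes within each library, 1 point a library and a bar for the mean of a group. On the left, Dgcr8 to Drosha lies between -4.44 and -4.13 in DGCR8 KO libraries and between -1.82 and -1.47 in WT, and on the right, Tarbp2 to Prkra spreads over -5.25 to -2.53 in DDX6 KO libraries because Tarbp2 has 1 to 9 counts there.

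The exporter was the gene that passed in DDX6 KO cells. Xpo5 (ENSMUSG00000067150, chr17:46202855-46242299, plus strand) encodes Exportin 5, the carrier of the precursor hairpin. Its WT values were 68.2, 64.1 and 87.6 CPM. Clone 1 had 38.8 and 39.6 CPM, and clone 2 had 48.2 and 47.9 CPM. All 4 DDX6 KO libraries lay below every other library, and the libraries of a clone were close to each other. Xpo5 fell by 0.76 on the log2 scale (SE 0.14, limma adjusted p = 0.000607), to 59.5% of the WT mean. The same 4 libraries had the higher values of Dab2, a gene of the endoderm and other cells, at 12.03 to 19.0 CPM against 3.57 to 8.16 CPM in WT. They also had the higher values of the fibroblast marker Col1a1, at 2.81 to 6.96 CPM against 1.34 to 2.39 CPM in WT, while Dcn and Postn were at 0 in both groups. Thy1 lay above WT too, at 0.696 to 1.68 CPM, near the floor. The other fibroblast markers, Pdgfrb, Col1a2, Col3a1 and Lum, overlapped with WT. So did every endoderm marker of the list other than Dab2. The ranges of Pdgfrb and Foxa2 reached lower in DDX6 KO than in WT at both ends. The part of these markers in the result was not tested.

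The fall was seen in each clone on its own. It was -0.91 (SE 0.18, limma adjusted p = 0.00177) in clone 1 and -0.62 (SE 0.17, limma adjusted p = 0.0133) in clone 2. Clone 2 stood above clone 1 by 0.29 (95% interval -0.14 to 0.71), which was not past the threshold. Over the 23 alternatives the fall of Xpo5 against WT stayed between -0.90 and -0.60, with adjusted p-values from 5.16e-05 to 0.0211. WT library 3, the deepest, had the highest WT values of Xpo5, Dgcr8, Dicer1 and Drosha. Leaving out a library moved the Xpo5 change to between -0.86 and -0.60, with adjusted p-values of at most 0.0101.

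In DGCR8 KO cells Xpo5 had 62.5, 55.3 and 66.4 CPM. The top of this range lay within that of WT, and the difference of -0.27 (SE 0.15, 95% interval -0.58 to 0.039) was not past the threshold (limma adjusted p = 0.163). With 1 library left out it ran from -0.37 without WT library 2 (adjusted p = 0.0850) to -0.11 without WT library 3 (adjusted p = 0.635). Against DDX6 KO cells, Xpo5 was higher in DGCR8 KO cells by 0.48 (SE 0.15, limma adjusted p = 0.0133) in 3 of 3 libraries. This contrast was outside the threshold with clone 2 alone (0.32, adjusted p = 0.180) and with scaling by total counts (0.36, adjusted p = 0.0540). The order of Xpo5 was thus WT, DGCR8 KO, DDX6 KO clone 2 and clone 1, where neighbours were not told apart and DDX6 KO as a whole lay below both others.

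Dicer1 (ENSMUSG00000041415, chr12:104687742-104751952, minus strand) encodes the nuclease that removes the hairpin's loop. Its WT values were 112, 105 and 132 CPM. The DGCR8 KO values were 149, 143 and 165 CPM, all above the WT range. Dicer1 rose by 0.38 (SE 0.12, limma adjusted p = 0.0221), to 131% of the WT mean. With the replicate block the rise was 0.39 (adjusted p = 0.00572). The call was lost with no filter on low counts (0.34, adjusted p = 0.0823), without WT library 1 (0.35, adjusted p = 0.0608) or 2 (0.30, adjusted p = 0.107) and without DGCR8 KO library 3 (0.32, adjusted p = 0.0713), and it held in the other 17 of 21 alternatives.

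In DDX6 KO cells Dicer1 had 113 and 128 CPM in clone 1 and 122 and 140.5 CPM in clone 2. One library lay above the WT range and 3 within it. The difference of 0.11 (SE 0.12, 95% interval -0.14 to 0.35) was not past the threshold (limma adjusted p = 0.501). It ran from 0.028 without WT library 2 to 0.22 without WT library 3, and was 0.23 with scaling by total counts (adjusted p = 0.889, 0.255 and 0.125). The direct contrast gave 0.27 (SE 0.11, 95% interval 0.030 to 0.51, limma adjusted p = 0.0633), with all 3 DGCR8 KO libraries above the 4 DDX6 KO libraries. It passed without DGCR8 KO library 2 (0.32, adjusted p = 0.0492) and without clone 2 library 2 (0.32, adjusted p = 0.0432). It was smaller with scaling by total counts (0.14, adjusted p = 0.318), with clone 2 alone (0.18, adjusted p = 0.335) and with the replicate block (0.19, adjusted p = 0.142).

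Prkra (ENSMUSG00000002731, chr2:76629898-76648015, minus strand) encodes PACT, an RNA-binding partner of Dicer. Its WT values were 7.68, 12.6 and 8.69 CPM, from 16 to 39 counts. The DGCR8 KO values were 11.3, 17.0 and 12.2 CPM. Clone 1 had 13.2 and 13.6 CPM, and clone 2 had 13.4 and 14.6 CPM. The DDX6 KO libraries all lay above WT, but the highest WT library lay within the 95% counting interval of each of them. The differences from WT were 0.48 (SE 0.26, limma adjusted p = 0.154) for DGCR8 KO and 0.52 (SE 0.24, limma adjusted p = 0.0973) for DDX6 KO. Neither was past the threshold, and the knockouts differed by -0.044 (95% interval -0.51 to 0.42), a sign that flipped with a replicate block.

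Tarbp2 (ENSMUSG00000023051, chr15:102518357-102523676, plus strand) encodes TRBP, the other partner of Dicer. It had 5 counts in each WT library. The DGCR8 KO libraries had 3, 6 and 2 counts, clone 1 had 2 and 3, and clone 2 had 1 and 9. These amount to 0.352 to 2.52 CPM, most of them near the floor, and the groups overlapped. With the filter taken off (24468 genes tested), the differences were -0.38 (95% interval -1.67 to 0.91, limma adjusted p = 0.754) for DGCR8 KO and -0.58 (95% interval -1.80 to 0.64, limma adjusted p = 0.610) for DDX6 KO. A change of Tarbp2 was not detectable at this depth.

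The ratio of Tarbp2 to Prkra, set per library, was 0.312, 0.135 and 0.128 counts of Tarbp2 per count of Prkra in WT. The DGCR8 KO ratios were 0.0811, 0.12 and 0.0667. Clone 1 had 0.0556 and 0.0769, and clone 2 had 0.0263 and 0.173. On the log2 scale it differed from WT by -1.02 in DGCR8 KO cells (two-sided exact permutation test, p = 0.10, the smallest possible) and by -1.40 in DDX6 KO cells (two-sided exact permutation test, p = 0.143). Without WT library 1 the first was -0.60 (exact permutation p = 0.20). Both partners of Dicer thus gave the fewest counts of the 6 genes in WT and DDX6 KO cells, and neither differed from WT past the threshold. In DGCR8 KO cells Dgcr8 had 98 counts and Prkra 117.

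**Figure D3:**
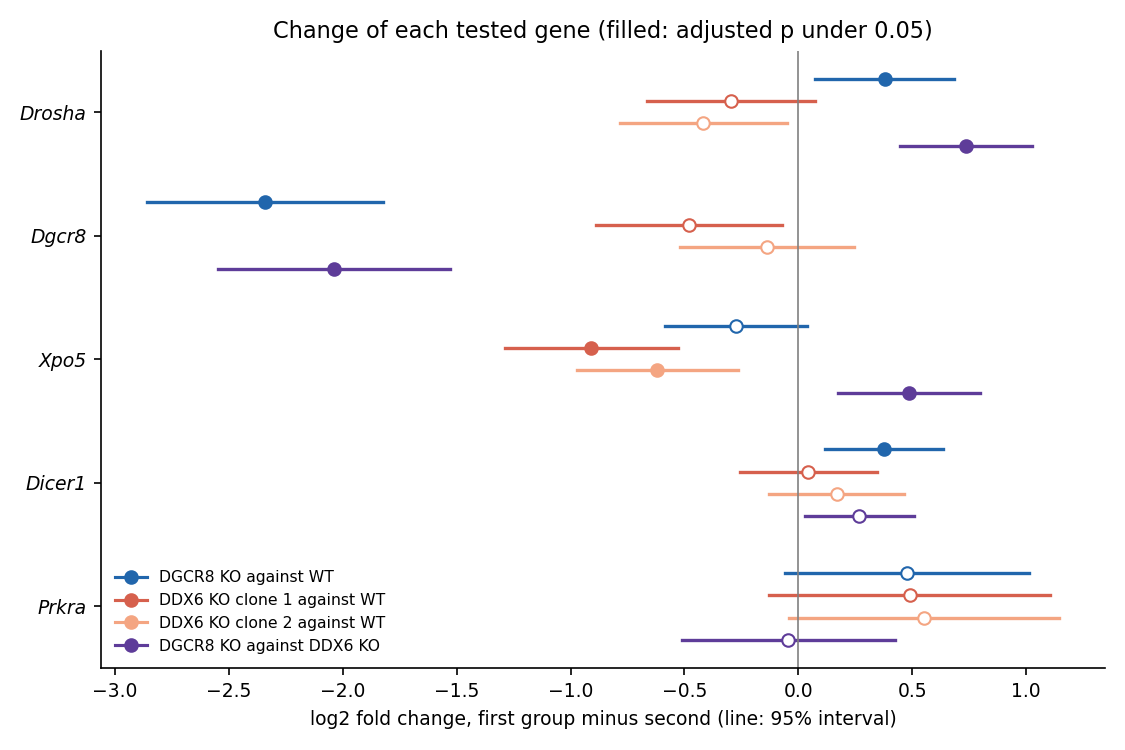
Log2 fold change of the 5 tested genes, with dots for the estimate, lines for the 95% interval and filled dots where the adjusted p-value was under 0.05. Xpo5 is filled in both DDX6 KO clones (-0.91 and -0.62). In DGCR8 KO against WT, Dgcr8 (-2.34), Drosha (0.38) and Dicer1 (0.38) are filled. In DGCR8 KO against DDX6 KO, Dgcr8 (-2.04), Drosha (0.74) and Xpo5 (0.48) are filled.

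The clones of DDX6 KO were also set against each other. The 5 tested genes differed between clone 2 and clone 1 by -0.12 to 0.34 on the log2 scale. None of them passed by limma or edgeR, and none had an unadjusted p-value under 0.05 by either (0.0428% of all genes passed by limma). The widest interval was that of Prkra (-0.56 to 0.69), and that of Dgcr8 ran from -0.10 to 0.79. Drosha was the gene with the negative sign. Against WT, Xpo5 was also the gene that passed in clone 1 and in clone 2, where 23.8% and 24.6% of all genes did (10.7% and 11.6% lower).

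Other genes of the pathway were grouped into 4 lists, with 47 genes in all, 45 of which were tested. In DGCR8 KO cells 6 were higher and 8 lower past the threshold, 31.1% in all, where 36.3% of all genes tested passed. In DDX6 KO cells 6 were higher and 17 lower. So 37.8% of the 45 genes were lower, where 16.6% of all genes tested were, and 13.3% were higher, where 17.9% were. The counts for these lists were not run under the alternatives. Over all genes tested, scaling by total counts took the lower ones in DDX6 KO against WT from 1944 to 1356. The lists were not matched to all genes by level. The median change over the 45 genes was 0.016 for DGCR8 KO and -0.16 for DDX6 KO, beside 0.0043 and 0.024 over all genes tested. The genes named from these lists beyond Lin28a and Lin28b were chosen after their values were seen.

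Of 15 cofactors of the Microprocessor, 1 was higher and 2 were lower without DGCR8, while 1 was higher and 6 were lower without DDX6 (of all genes, 36.3% passed in the first contrast, and in the second 17.9% were higher and 16.6% lower). The median change of the list was 0.071 and -0.28. Ddx17, an RNA helicase of the larger Drosha complex, went both ways. It had 784 ± 18.6 CPM (SD, n = 3) in WT, 1020 ± 47.1 CPM (SD, n = 3) in DGCR8 KO and 572 ± 60.9 CPM (SD, n = 4) in DDX6 KO cells. It rose by 0.38 in the first (limma adjusted p = 0.00406) and fell by 0.46 in the second (limma adjusted p = 0.000713). Srrt, which links the cap-binding complex to miRNA processing, fell by 0.55 in DDX6 KO cells (limma adjusted p = 0.000601), and in DGCR8 KO cells it differed by 0.18 (limma adjusted p = 0.204). The cap-binding subunit Ncbp2 fell by 0.35 in DGCR8 KO (limma adjusted p = 0.00688) and fell by 0.65 in DDX6 KO cells (limma adjusted p = 2.94e-05). Its partner Ncbp1 fell by 0.70 in DGCR8 KO (limma adjusted p = 0.000277) and differed by -0.16 in DDX6 KO cells (limma adjusted p = 0.279). The cofactor that was higher there was Hnrnpa2b1, a reader of primary miRNA marks, with an increase of 0.35 (limma adjusted p = 0.0275).

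Of 7 tested export factors, 2 were lower without DGCR8 and 3 without DDX6, where 16.5% and 16.6% of all genes were lower. The median change of the list was -0.19 and -0.080. Ran, the GTPase that Exportin 5 binds together with its hairpin, had 504 ± 53.5 CPM in WT (SD, n = 3), 393 ± 17.5 CPM in DGCR8 KO (SD, n = 3) and 376 ± 16.5 CPM in DDX6 KO cells (SD, n = 4). It fell by 0.37 (limma adjusted p = 0.00677) and fell by 0.43 (limma adjusted p = 0.00154). Ranbp1, which binds Ran with GTP in the cytoplasm, fell by 0.72 in DDX6 KO cells (limma adjusted p = 1.58e-05). Rcc1, which loads Ran with GTP, fell by 0.54 in DGCR8 KO cells (limma adjusted p = 0.00114) and differed by -0.011 in DDX6 KO cells. These factors serve other cargo too.

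Of 10 genes that modify or destroy precursor miRNAs, 2 were higher and 1 lower without DGCR8, while 3 were higher and 1 lower without DDX6, where 36.3% and 34.5% of all genes passed. The median change of the list was 0.10 and 0.25. Lin28a and Lin28b encode RNA-binding proteins that hold back the processing of let-7, and they moved against each other in both knockouts. Lin28a had 60.9 ± 14.1 CPM in WT (SD, n = 3), 2.95 ± 2.04 CPM in DGCR8 KO (SD, n = 3) and 18.2 ± 4.03 CPM in DDX6 KO cells (SD, n = 4). It fell by 4.55 (limma adjusted p = 8.00e-07) and fell by 1.73 (limma adjusted p = 8.76e-06). Lin28b had 10.3 ± 2.07 CPM in WT, 45.3 ± 3.22 CPM in DGCR8 KO and 27.3 ± 1.44 CPM in DDX6 KO cells. It rose by 2.14 (limma adjusted p = 2.42e-07) and by 1.40 (limma adjusted p = 4.11e-05). Parn, an exonuclease that trims RNA 3′ ends, rose by 0.61 in DGCR8 KO cells (limma adjusted p = 0.000755) and differed by -0.093 in DDX6 KO cells.

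Of 13 tested genes that load or assist the effector complex, the Argonautes and their chaperones, 3 were higher and 3 lower without DGCR8, while 2 were higher and 7 lower without DDX6 (36.3% of all genes passed in the first contrast, and in the second 17.9% were higher and 16.6% lower). Their median change was -0.14 and -0.31, beside 0.0043 and 0.024 over all genes. Of the 3 tested Argonautes, 2 rose in DGCR8 KO, 1 of them by more than 1 on the log2 scale, and in DDX6 KO 1 rose and 1 fell. Hsp90ab1, a chaperone used in loading small RNA duplexes and the most abundant of the list, fell by 0.50 in DDX6 KO cells (limma adjusted p = 0.000143) and differed by -0.028 in DGCR8 KO cells. The other HSP90 gene of the list, Hsp90aa1, rose by 0.36 in DDX6 KO cells (limma adjusted p = 0.00436) and by 0.30 in DGCR8 KO cells (limma adjusted p = 0.0190). Tsn, a subunit of the nuclease C3PO that removes the passenger strand, fell by 0.45 in DDX6 KO cells (limma adjusted p = 0.000778), and in DGCR8 KO cells it differed by -0.23 (limma adjusted p = 0.0705). The other C3PO subunit, Tsnax, differed by 0.24 in DDX6 KO cells (limma adjusted p = 0.251) and fell by 0.58 in DGCR8 KO cells (limma adjusted p = 0.0180).

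**Figure D4:**
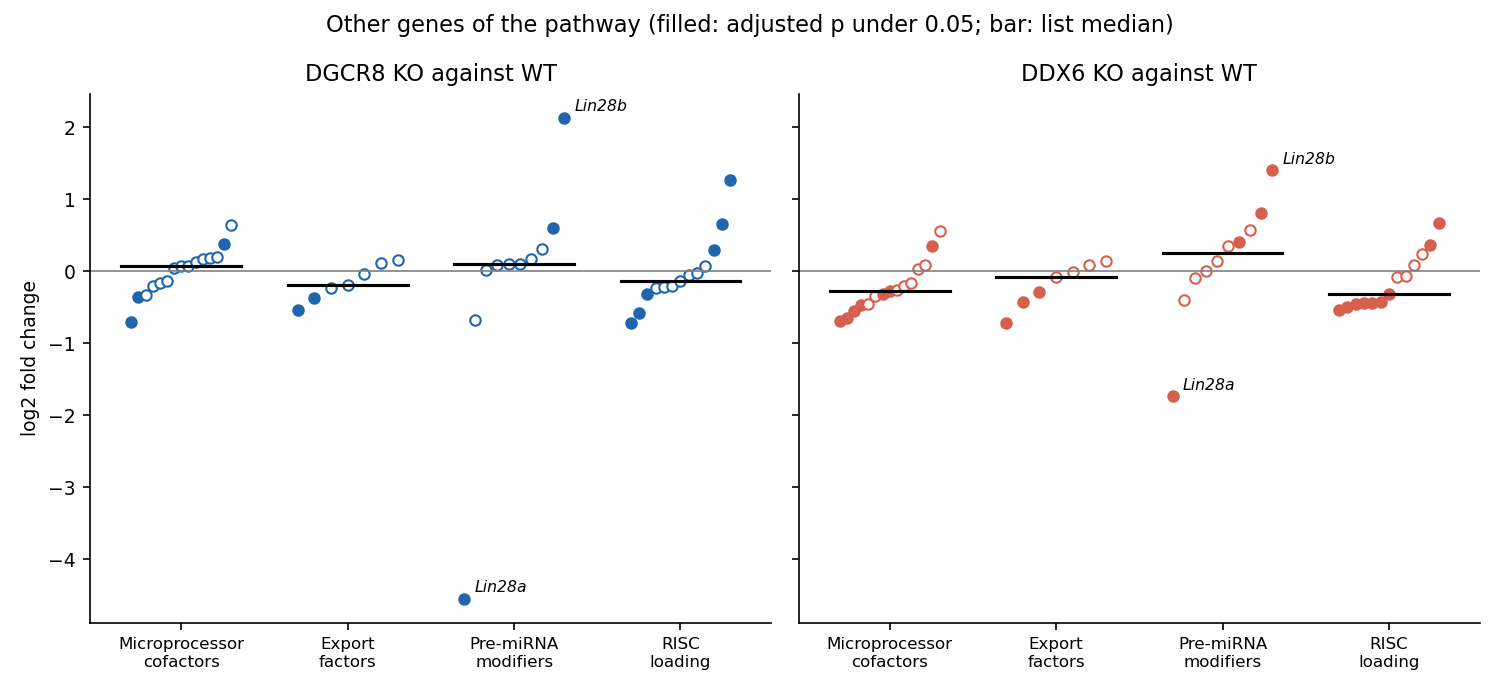
Log2 fold change of the 45 tested genes of the 4 lists in each knockout against WT, 1 dot a gene, filled where the adjusted p-value was under 0.05, with a bar for the median of a list. In DDX6 KO cells 17 of the 45 genes are filled and below 0, and Lin28a and Lin28b stand apart in both panels.

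The genes whose levels followed each member most closely were taken by Pearson's r of log2 CPM over the 10 libraries. They came from 8371 tested genes whose mean reached 10 CPM. Genes without a symbol, predicted genes, unnamed clones and pseudogenes, as told by their symbols, had been left out of these. All points of such an r share libraries, groups and scaling, so it describes these libraries only. Closest to Dgcr8 were Ccnf (r = 0.982), which encodes cyclin F, Shcbp1 (r = 0.977) and Acd (r = 0.974). Ccnf had 217 CPM in WT, 120 CPM in DGCR8 KO and 201 CPM in DDX6 KO cells on average. Closest to Xpo5 were Trim28 (r = 0.984), which encodes a corepressor, Prpf8 (r = 0.977), which encodes a core protein of the spliceosome, and Uaca (r = 0.968). Trim28 had 905 CPM in WT, 744 CPM in DGCR8 KO and 548 CPM in DDX6 KO cells. Closest to Drosha were Higd2a (r = 0.964), Tfe3 (r = 0.957) and Ndufb9 (r = 0.954). Closest to Dicer1 were Sel1l (r = 0.943), Txnrd1 (r = 0.942) and Rrp1 (r = 0.939), and closest to Prkra were Pum2 (r = 0.962), Atp6v1h (r = 0.933) and Necap1 (r = 0.932).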

How the data were processed

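According to the submitters' processing notes and the study's methods, the authors trimmed reads with cutadapt 1.14, aligned them to mm10 with STAR 2.5.3a and counted them by strand with featureCounts 1.5.3. The deposited values are raw counts per gene and library, with 92 spike-in sequences that were set apart here. Identifiers were paired with symbols through a Gencode annotation of the same build (GRCm38), and 193 of 51467 found none. Libraries were grouped by their titles, and all 10 were used.

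Genes that reached 3 CPM in 3 or more libraries were fitted with limma 3.58.1 (voom weights, trimmed mean scaling from edgeR 4.0.16, R 4.3.3), all libraries in 1 model by genotype and again by clone. P-values were two-sided and adjusted by the Benjamini-Hochberg method over all 11683 genes. A gene rose or fell at an adjusted p-value under 0.05. On simulated data for DGCR8 KO against WT (11683 genes), 82% of 200 genes changed by 1.5 on the log2 scale were recovered. Smaller changes, such as those of the tested members other than Dgcr8, were not simulated, so their recovery is not known. Total counts ran from 2131156 to 4745083. Intervals and floors cover counting error only, as no molecular identifiers are stated. Libraries of a group differed by more than sampling noise (chi-square of 2.46 to 7.87 per degree of freedom), so none was the same library read again. This does not show that they came from separate cultures.

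Replicate numbers come from the titles. Deviations from the group means correlated in same-numbered WT and DGCR8 KO libraries (0.14, 0.27 and 0.28). Those of the DDX6 KO clones gave 0.20. Whether the numbers pair DDX6 KO with WT libraries was not tested. The main fits used no block, as the study states none, and a fit with the number as a block was an alternative. Alternatives also covered the test (edgeR, DESeq2 1.42.0), scaling, filter and libraries left out. Members and lists were chosen with earlier results of these data known. Genes named were the members, Ddx6, list genes past both thresholds (up to 4 a list, Argonautes by count only) and the 3 most alike by correlation, and others are marked where they appear.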

Additional observations from a re-analysis of the deposited data

Results flagged for a closer look

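Of the 5 tested genes, 3 differed between the knockouts by a direct test, where 44% of all genes tested did. As both knockouts are set against the same WT libraries, this test is of the difference between their changes from WT. Dgcr8, the gene targeted in one of them, was lower in DGCR8 KO than in DDX6 KO cells (log2 difference -2.04, limma adjusted p = 2.71e-06). Drosha was higher in DGCR8 KO cells (log2 difference 0.74, limma adjusted p = 0.000309). Xpo5 was higher in DGCR8 KO cells too (log2 difference 0.48, limma adjusted p = 0.0133).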

How the results depend on the processing

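Of 450 values from the alternatives, 414 kept their direction and their side of the threshold (counts of genes stayed within 1.5 times). The replicate block turned the sign of Prkra between the knockouts (0.055), a difference past no threshold, and changed no other call, and leaving out 1 library moved that value between -0.22 and 0.083, with the sign turned without DGCR8 KO library 1 (0.083) or 3 (0.0074). Drosha in DGCR8 KO against WT was no longer past the threshold with DESeq2 (0.37), limma-trend (0.39), DESeq2 size factors (0.36), scaling without the genes of chromosomes 6 and 8, which earlier results had singled out (0.35), no filter (0.34), a filter of 10 CPM (0.37), both groups alone (0.37), clone as a random block (0.38) and 7 of the 10 libraries left out (0.24 to 0.46 over all 10). Dicer1 there was not past it with no filter (0.34), and leaving out 1 library gave 0.30 to 0.48. Against WT in DDX6 KO cells, Drosha passed with both groups alone (-0.37) and ran from -0.47 to -0.28 with 1 library left out. Scaling by total counts brought Prkra there past the threshold (0.65) and Xpo5 between the knockouts outside it (0.36), as did clone 2 alone (0.32). That scaling moved the median of all genes by 0.12 in DDX6 KO against WT and by -0.13 between the knockouts. The genes past the threshold then split into 2822 higher and 1356 lower instead of 2088 and 1944, and into 2037 and 3210 instead of 2688 and 2456. Dicer1 between the knockouts ran from 0.20 to 0.32 with 1 library left out. The ratio of Dgcr8 to Drosha in DDX6 KO against WT ran from -0.060 to 0.29, turning sign without WT library 1 (-0.038) or clone 2 library 1 (-0.060). A filter of 10 CPM took the genes past both thresholds from 1310 to 822 and from 1997 to 1316, as fewer genes were tested. The cause of the other shifts was not tested. Depth limits Tarbp2 and Prkra, with at most 9 and 52 counts in a library.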
